A study of Rattus norvegicus with 18 samples.

Results

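The solute carrier (SLC) superfamily groups the membrane proteins that move small solutes across cell and organelle membranes without splitting ATP themselves. Its messages were followed here on 18 microarrays of INS1E cells, a rat insulinoma line kept as a model of the insulin-secreting pancreatic beta cell. A gene was included when its symbol on the array began with Slc and a digit and its mean log2 signal over the 18 arrays was above 6.5. Of 237 such symbols among 13136 on the array's deposited table, 169 met this level, 60 lay at or below it, and 8 were set aside by name (Slc2a1, Slc2a2, Slc7a5, Slc3a2, Slc7a1, Slc7a11, Slc6a9 and Slc38a2). For a symbol with several probe sets the one with the highest mean was taken, which concerned 9 members. The members were thus chosen by measured values, their mean signal on the same 18 arrays, and the signal levels given here describe them and were not tested.

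The study crossed 3 pretreatments with the presence or absence of a glucose stimulus, with 3 arrays, numbered 1 to 3 in the labels, in each of 6 groups. Cells grown at 11 mM glucose were kept for 72 h with calcitriol (1,25(OH)2vitamin D, the active hormone), with calcidiol (25(OH)vitamin D, its precursor, which lacks 1 hydroxyl group), each at 10 nM, or with neither. All groups then spent 60 min in Krebs-Ringer buffer free of glucose, and the stimulated groups a further 60 min in that buffer with 22 mM glucose. Whether unstimulated cells also stayed a further 60 min, in buffer free of glucose, could not be settled here. If they did not, glucose and time in buffer cannot be told apart in any glucose comparison. RNA (150 ng per array) was hybridised to Affymetrix rat gene arrays, which give a log2 signal per probe set, and groups were compared as differences of log2 means. INS1E is a tumour-derived clone, and nothing in the labels says that arrays of 1 group came from separate cultures, so that a p-value here is only set against the variation among these arrays, which could be technical.

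Carriers set which fuels, amino acids, vitamins and ions enter a beta cell, and those of the mitochondrial SLC25 family pass metabolites between the mitochondrial matrix and the cytosol. In the beta cell, glucose enters through facilitative carriers and is oxidised in mitochondria, and the citrate, malate and nucleotide carriers of the inner membrane take part in coupling that oxidation to insulin release. The zinc carrier Slc30a8 (ZnT8) loads insulin granules with zinc, and the thiamine carrier Slc19a2 is the gene affected in a human syndrome of anaemia, deafness and diabetes.

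The promoter windows of 3 members that rose under glucose and of 2 that passed the test when the 6 arrays numbered 3 were left out are printed here, the first 3 because they were called on all 18 arrays and the other 2 because they hold a motif that was searched. Each runs from 250 bases before to 50 bases after the annotated transcription start, on the strand of the gene, in RefSeq's rat assembly GRCr8. The windows lie at chr13:79134868-79135167 (plus strand) for Slc19a2, chr11:96559804-96560103 (plus strand) for Slc25a1, chr18:16160114-16160413 (minus strand) for Slc39a6, chr3:36116532-36116831 (minus strand) for Slc25a25 and chr14:98761513-98761812 (minus strand) for Slc1a4. Capitals mark the letters of the motifs searched: TGACGTCA (the cAMP response element palindrome), CACGTG (an E-box) and TGATGNAA (an amino acid response type element), each on both strands. The last 2 windows were thus chosen after the search.
Slc19a2: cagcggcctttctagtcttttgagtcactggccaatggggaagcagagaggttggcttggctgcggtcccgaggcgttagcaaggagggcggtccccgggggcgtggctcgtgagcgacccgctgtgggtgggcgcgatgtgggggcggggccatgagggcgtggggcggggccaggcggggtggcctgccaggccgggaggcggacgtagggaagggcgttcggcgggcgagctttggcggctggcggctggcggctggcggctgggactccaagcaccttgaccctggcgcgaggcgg
Slc25a1: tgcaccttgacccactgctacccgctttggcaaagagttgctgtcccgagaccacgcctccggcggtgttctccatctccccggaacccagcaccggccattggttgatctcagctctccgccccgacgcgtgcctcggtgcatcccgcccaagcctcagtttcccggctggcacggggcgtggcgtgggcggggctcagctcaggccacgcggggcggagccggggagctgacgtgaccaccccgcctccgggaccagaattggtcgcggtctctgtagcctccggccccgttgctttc
Slc39a6: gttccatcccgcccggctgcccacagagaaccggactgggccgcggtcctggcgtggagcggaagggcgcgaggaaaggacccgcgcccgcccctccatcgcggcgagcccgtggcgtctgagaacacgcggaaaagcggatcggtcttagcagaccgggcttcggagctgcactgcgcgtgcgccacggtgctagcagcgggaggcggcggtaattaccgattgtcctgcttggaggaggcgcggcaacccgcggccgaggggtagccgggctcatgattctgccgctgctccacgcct
Slc25a25: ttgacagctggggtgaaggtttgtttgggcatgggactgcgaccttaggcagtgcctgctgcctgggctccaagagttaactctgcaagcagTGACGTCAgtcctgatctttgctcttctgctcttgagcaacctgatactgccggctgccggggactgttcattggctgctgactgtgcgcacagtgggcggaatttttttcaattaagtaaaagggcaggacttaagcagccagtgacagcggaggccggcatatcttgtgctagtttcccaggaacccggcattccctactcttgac
Slc1a4: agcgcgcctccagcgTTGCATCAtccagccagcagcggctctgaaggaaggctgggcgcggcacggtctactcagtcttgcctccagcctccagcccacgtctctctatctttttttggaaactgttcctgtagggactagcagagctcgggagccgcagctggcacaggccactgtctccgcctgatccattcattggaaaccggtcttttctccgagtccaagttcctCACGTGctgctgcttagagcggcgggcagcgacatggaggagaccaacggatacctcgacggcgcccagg

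The windows of Slc19a2, Slc25a1 and Slc39a6 held none of these letters, which says nothing of other forms of the elements or of sequence outside the window. In Slc25a25 the palindrome began at -158, counted in bases from the start site, and in Slc1a4 an E-box began at -20 and TTGCATCA, the TGATGNAA motif on the other strand, at -235. RefSeq windows were matched for 132 of the 169 members, not for Slc20a1. The palindrome stood in 3 of them (2.27%, in Slc25a25, Slc25a33 and Slc45a1) against 1.91% of all 27457 rat promoter windows and 3.47% of the 7197 windows of genes tested. The E-box stood in 18 member windows (13.6%), against 6.65% of all windows and 9.93% of those of genes tested. TGATGNAA stood in 3 (2.27%, in Slc1a4, Slc35a2 and Slc38a1), against 3.82% and 1.81%. No difference between these shares was tested, and a match of letters is a description, not a site of binding.

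The 169 members came from 40 families and were sorted by substrate into 8 classes. The largest class, called mitochondrial here, was the SLC25 family with 31 members. It was assigned by family and not by the location of each protein. There were 26 carriers of inorganic ions and protons, 23 of amino acids and peptides, 22 of nucleotide sugars and acetyl-CoA, 21 of metal ions, 21 of nucleosides, vitamins, lipids and organic ions, 19 of sugars and monocarboxylates, and 6 of vesicles and lysosomes. By name alone match the symbols Slc9a3r1 and Slc9a3r2 (now Nherf1 and Nherf2), which are scaffold proteins, and Slc4a1ap, which is the adaptor kanadaptin. All 169 passed the filter on low signal and were tested, as the inclusion level lay above the filter's 6.38.

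The median member had a mean signal of 8.52, and 19 members exceeded 10. Those with the strongest signals included Slc25a5 (12.17), an adenine nucleotide translocase of the inner mitochondrial membrane, Slc30a8 (11.999), Slc7a2 (11.57), a carrier of cationic amino acids, Slc35b1 (11.32), which exchanges ATP and ADP across the endoplasmic reticulum membrane, Slc6a6 (11.28), the taurine carrier, and Slc25a3 (11.16), the mitochondrial phosphate carrier. Slc29a4 (11.06), Slc25a11 (10.90), Slc25a4 (10.85) and Slc38a4 (10.84) completed the 10 highest. Signals of different probe sets depend on the probes as well as the message, so this order is not one of abundance. The members just above the level were Slc4a8 (6.56), Slc30a3 (6.56) and Slc17a7 (6.51), and symbols just below it included Slc16a11 (6.41) and Slc44a4 (6.40).

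Array medians over all probe sets lay between 7.52 and 7.63. Of 8 beta-cell markers, 6 were on the table and 5 had signal above the filter (Ins1, Ins2, Iapp, Nkx6-1 and Mafa), with array means of 10.317 to 10.935 over the 6. The remaining marker, Ucn3, was below the filter on average and ran from 5.04 to 8.68, by far the widest range of the 6. Of 16 markers of other cells, 8 were on the table and 2 had signal above the filter, the glucagon gene Gcg (11.5) and Sox9 (8.10), with array means of 6.43 to 6.77 over the 8. The other-cell mean ran from 6.45 to 6.55 in unstimulated cells without vitamin D and from 6.53 to 6.66 in stimulated ones. After calcitriol it ran from 6.43 to 6.54 and, wholly above that, from 6.56 to 6.77 under glucose, and after calcidiol from 6.44 to 6.66 and from 6.47 to 6.73. Its part in any result was not tested. The 6 arrays numbered 3 differed from the others in their response to glucose, so results are given with and without them.

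Under 60 min of glucose 4 of the 169 carriers were higher by the test when averaged over the 3 pretreatments, and none was lower. These were the plasma membrane phosphate importer Slc20a1 (PiT-1), the thiamine carrier Slc19a2, the zinc importer Slc39a6 (ZIP6) and the mitochondrial citrate carrier Slc25a1. Each belongs to a different class, and their differences ran from 0.21 to 0.58 on the log2 scale. Over all 9852 genes tested, 3.37% were called (1.4% higher and 1.97% lower), beside 4 members (2.37%), all higher. Over both directions together the members' share was below that of all genes, among higher calls it was above, and neither difference was tested. A gene was called when limma's p, adjusted by Benjamini-Hochberg over all genes tested, was under 0.05. The median difference of the members was -0.0046, against -0.030 for all genes. An unadjusted p under 0.05 was found for 23 of the 169 members, against 1876 of the 9852 genes. The members' share was thus the smaller one, and the difference was not tested.

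**Figure D1:**
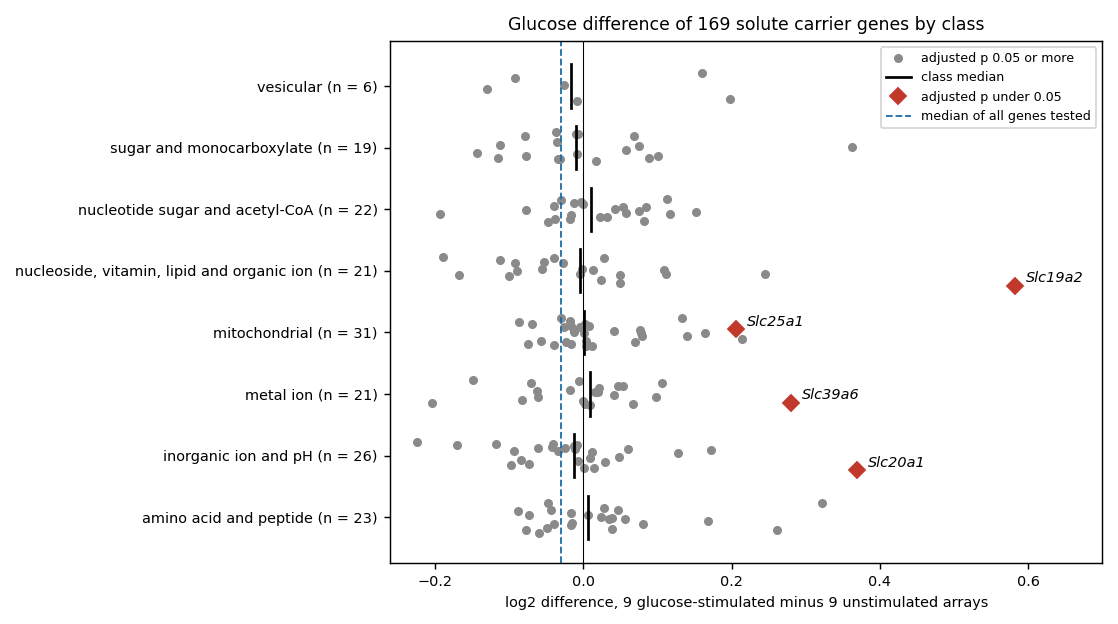
Log2 difference under glucose (mean of 9 stimulated minus 9 unstimulated arrays, horizontal axis) of each of 169 carriers, by substrate class, with diamonds for the 4 that passed the test, black bars for class medians and a dashed line for the median of all genes tested. The class medians all lie close to 0, and the 4 called members stand to the right in 4 different classes, with Slc19a2 farthest out at 0.58.

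Slc20a1 carries phosphate with sodium into the cell. Without vitamin D its log2 signal was 9.67, 9.67 and 9.72 on unstimulated arrays 1, 2 and 3, and 10.14, 10.14 and 9.89 on the stimulated ones. After calcitriol it was 9.71, 9.66 and 9.89 without glucose and 10.24, 10.11 and 10.10 with it. After calcidiol it was 9.67, 9.56 and 9.70 without glucose and 10.21, 10.10 and 9.63 with it. All stimulated arrays numbered 1 and 2 lay above every unstimulated array, while stimulated array 3 after calcidiol lay below its own control, so that the 9 and 9 overlapped. The difference was 0.37 (SE 0.067), with a limma adjusted p of 0.0177.

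Slc19a2 imports thiamine, the precursor of a cofactor of pyruvate and 2-oxoglutarate dehydrogenase. Without vitamin D it measured 7.41, 7.42 and 7.46 before the stimulus and 8.28, 8.06 and 7.55 under it, on arrays 1, 2 and 3. After calcitriol the values were 7.35, 7.41 and 7.67, and 8.44, 7.999 and 7.99 under glucose. After calcidiol they were 7.37, 7.35 and 7.27, and 8.36, 8.12 and 7.17 under glucose. The stimulated arrays 1 and 2 were again above all others, and stimulated array 3 after calcidiol was the lowest of all 18. The difference was 0.58 (SE 0.137, limma adjusted p = 0.0377).

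Slc39a6 brings zinc into the cytosol. Its unstimulated values were close together, from 10.16 to 10.27 with an SD of 0.033 over 9 arrays. Under glucose it reached 10.60, 10.59 and 10.16 without vitamin D, 10.67, 10.54 and 10.42 after calcitriol, and 10.64, 10.52 and 10.23 after calcidiol. The spread of the stimulated arrays (SD 0.180) lay mostly between numbers 1 and 2 on one side and number 3 on the other. The difference was 0.28 (SE 0.064, limma adjusted p = 0.0351).

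Slc25a1 moves citrate out of the mitochondrial matrix, where it serves as a source of cytosolic acetyl-CoA. It measured 9.07, 9.10 and 9.04 without and 9.34, 9.32 and 8.97 with glucose in cells that had no vitamin D. After calcitriol it measured 8.99, 9.04 and 9.17, and 9.41, 9.34 and 9.23 under glucose. After calcidiol it measured 9.03, 8.87 and 9.05, and 9.30, 9.23 and 9.08 under glucose. Stimulated arrays 1 and 2 exceeded every unstimulated one, and the stimulated arrays 3 without vitamin D and after calcidiol did not. The difference, 0.21 (SE 0.054), was the smallest of the 4, and its limma adjusted p of 0.0483 lay just under the threshold.

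**Figure D2:**
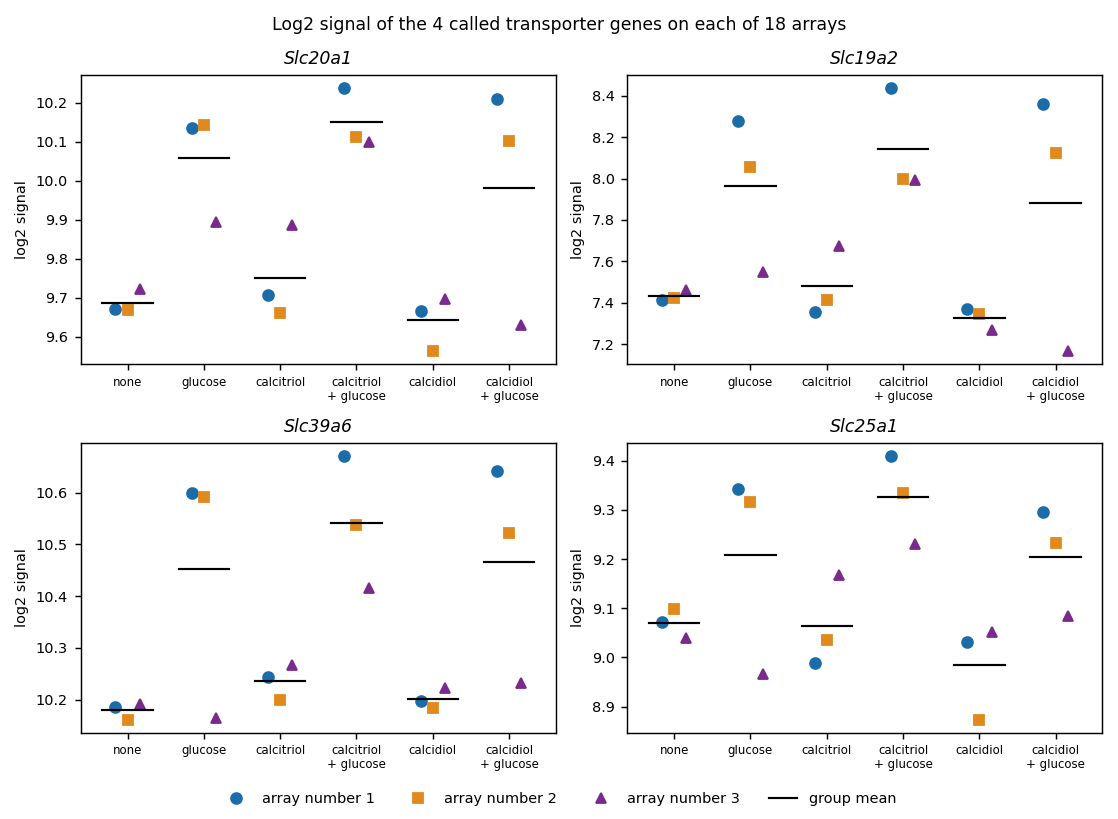
Log2 signal (vertical axis) of Slc20a1, Slc19a2, Slc39a6 and Slc25a1 on every array, by group, with symbols for the array number in the labels and bars for group means of 3 arrays. In each panel the stimulated arrays numbered 1 and 2 sit above all unstimulated arrays, and those numbered 3 sit lower, for Slc19a2 after calcidiol at 7.17.

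The 4 calls depended on single arrays. With 1 array left out at a time the count of called members ranged from 0 (without calcitriol array 2, unstimulated) to 12 (without stimulated calcidiol array 3), and Slc20a1 alone was called in most fits without an array numbered 1 or 2. With all 6 arrays numbered 1 left out, or all 6 numbered 2, none was called. With the array number as a block, which pairs the arrays by their number, 13 members were called, or 7.69% against 9.55% of all genes. Of these 11 were higher (6.51%, background 2.94%) and 2 lower (1.18%, background 6.61%). Both other scalings moved the split between directions: quantile normalization and centring each array on its median each called 8 members higher and 1 lower (the ascorbate carrier Slc23a2), that is 4.73% and 0.592% of members. After quantile normalization 1.86% of all genes were called higher and 1.31% lower, and after centring 1.78% and 1.39%. Among all genes, quantile normalization turned the split from 138 higher and 194 lower to 183 and 129.

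The 6 arrays numbered 3 had been seen to respond less to glucose, so more calls and larger differences follow from their omission. The results without them are therefore no added support. Leaving them out gave 14 called members (8.28%, against 9.94% of all genes), of which 13 were higher (7.69%, against 3.76%) and 1 lower (0.592%, against 6.18%). All 4 carriers of the full set were among them, with larger differences: 0.50 for Slc20a1, 0.82 for Slc19a2, 0.40 for Slc39a6 and 0.31 for Slc25a1. Added to them were the folate carrier Slc19a1 (0.38, limma adjusted p = 0.00134), the neutral amino acid carriers Slc1a4 (0.47, adjusted p = 0.0011) and Slc6a15 (0.44, adjusted p = 0.0425), and the insulin-regulated glucose carrier Slc2a4 (GLUT4; 0.54, adjusted p = 0.0070). The sodium-calcium exchanger Slc8a2 (0.28), the lysosomal sialic acid exporter Slc17a5 (0.20), and 3 mitochondrial carriers, Slc25a22 for glutamate (0.32), Slc25a44 for branched-chain amino acids (0.23) and Slc25a25 for ATP-magnesium and phosphate (0.23), also rose. The monocarboxylate family member Slc16a6 fell by 0.27 (adjusted p = 0.0267).

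On all 18 arrays without a block these 10 further genes did not pass. Slc19a1 came closest, at 0.24 (SE 0.068, limma adjusted p = 0.0595, and 0.0296 with the block), and Slc1a4 was at 0.26 (SE 0.10, adjusted p = 0.162). Slc2a4, whose mean signal of 6.56 is barely above the inclusion level, was at 0.36 (SE 0.135, adjusted p = 0.149). On stimulated arrays Slc2a4 ranged from 6.12 to 7.39 with a median of 6.82, and on unstimulated ones from 6.13 to 6.57 with a median of 6.37, so the groups overlapped. Slc1a4 ranged from 8.51 to 9.20 (median 8.93) with glucose and from 8.46 to 9.06 (median 8.55) without it, again with overlap.

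Within each array number the same contrast can be taken over the 3 pretreatments. For Slc19a2 it was 0.98 among arrays numbered 1, 0.66 among those numbered 2 and 0.10 among those numbered 3. For Slc20a1 the 3 values were 0.51, 0.49 and 0.11, and for Slc39a6 0.43, 0.37 and 0.044. Slc25a1 gave 0.32, 0.29 and 0.0076. Slc1a4 gave 0.56, 0.37 and -0.15. For all 4 called members the order was the same, with number 3 nearest to 0 in each. Over all 169 members the differences had an SD of 0.175 within number 1, 0.137 within number 2 and 0.0696 within number 3, and 14, 8 and 0 members exceeded 0.3 in size. What sets the arrays numbered 3 apart was not tested, and the labels name no batch.

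**Figure D3:**
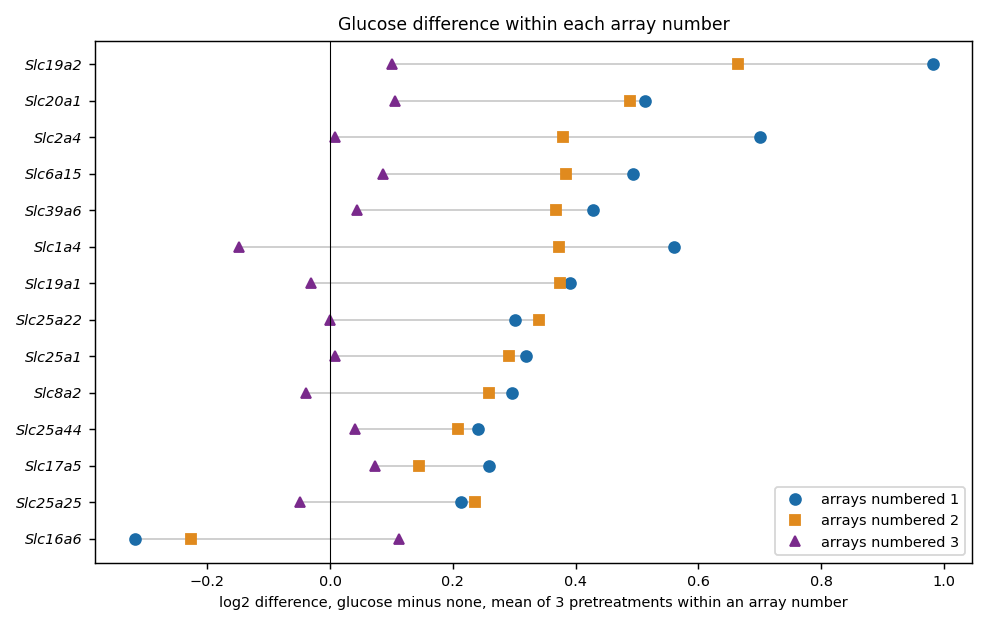
Log2 difference under glucose within arrays numbered 1 (circles), 2 (squares) and 3 (triangles), each the mean of the 3 pretreatments, for the 14 carriers called without the arrays numbered 3. Circles and squares lie on the same side of 0 in each row, while the triangles lie between -0.15 (Slc1a4) and 0.11. The carriers shown were picked on the arrays numbered 1 and 2, which favours this arrangement.

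No member's 9 stimulated arrays lay wholly apart from its 9 unstimulated ones (0 of 169, against 0.0812% of all genes). On numbers 1 and 2 alone, 13 members were fully separated (12 higher, 1 lower), or 7.69% against 8.18% of all genes. Numbers 1 and 2 were likewise chosen after the glucose response was seen. The share higher was 7.1%, against 3.06% of all genes, and the share lower 0.592%, against 5.13%. These 13 held all 4 called carriers, and also Slc39a10 among the zinc importers, and the zinc importer Slc39a1 was the one that was lower. On number 3 alone 8 members were separated (4.73%, against 5.71%), and none of the 4 called carriers was among them. Slc23a2, which imports ascorbate, was lower under glucose in each pair of arrays that shared number and pretreatment, with a difference of -0.17 (SE 0.045, limma adjusted p = 0.0532). It was picked for its small p, which favours 1 direction in all pairs. The share of all genes with such pairs is not given here. The sulfate carrier Slc26a2 was at -0.22 (SE 0.070, adjusted p = 0.0858). Both were called lower with the array number as a block (adjusted p = 0.0243 and 0.034).

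By class, the median glucose difference lay between -0.017 (vesicular) and 0.011 (nucleotide sugar and acetyl-CoA carriers). The class counts of unadjusted p under 0.05 stand beside 1876 of all 9852 genes. Calls in a class stand beside 3.37% of those genes, 1.4% higher and 1.97% lower. No class was tested against these shares. Among 31 mitochondrial carriers 1 rose, Slc25a1, and 5 had an unadjusted p under 0.05, including Slc25a22 (0.21, limma adjusted p = 0.104) and Slc25a44 (0.16, adjusted p = 0.0783). Among 21 carriers of nucleosides, vitamins, lipids and organic ions 1 rose, Slc19a2, and 5 had an unadjusted p under 0.05, among them Slc19a1 at 0.24, Slc23a2 at -0.17 and the riboflavin carrier Slc52a2 at -0.19. Of the 26 ion carriers 1 rose, Slc20a1, and of the 21 metal ion carriers 1, Slc39a6. None passed among the 23 carriers of amino acids and peptides, the 22 of nucleotide sugars, the 19 of sugars and monocarboxylates or the 6 vesicular ones, in which 2, 3, 2 and 1 had an unadjusted p under 0.05. Slc6a15 (0.32, adjusted p = 0.0716), Slc35f5 (0.15, adjusted p = 0.0613), Slc2a4 (0.36, adjusted p = 0.149) and Slc17a5 (0.16, adjusted p = 0.0796) had the smallest p in these 4 classes. With the array number as a block each of these 4 was called higher, at limma adjusted p values of 0.0173, 0.0213, 0.0275 and 0.0241.

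Slc30a8 stayed between 11.94 and 12.07 on all 18 arrays, and its glucose difference was -0.00076 with a 95% interval of -0.062 to 0.061. Slc25a5, the adenine nucleotide translocase, was at 0.0015 (-0.071 to 0.074). The lactate and pyruvate carrier Slc16a1, whose expression is normally low in beta cells, ranged from 6.39 to 7.30, with a glucose difference of -0.010 and a wide interval of -0.31 to 0.29.

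Of 28 genes of proteins that work beside carriers (sodium, calcium and proton pump subunits, carrier chaperones, metallothioneins, the mitochondrial pyruvate carrier and porins), chosen as a list with earlier results known, 25 were tested and 0 passed, with a median difference of 0.024 and 1 unadjusted p under 0.05. Of the 8 SLC symbols set aside by name, 7 were tested and 1 rose, the amino acid carrier Slc7a5 (0.26, limma adjusted p = 0.0311), with a median of 0.094. Of the 60 SLC symbols at or below the level, 4 were tested and 1 was called lower. Their lowest difference was -0.33 and their smallest limma adjusted p 0.0274. Over all genes tested 3.37% were called, 1.4% higher and 1.97% lower. These 3 short lists were not tested against those shares.

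Within single pretreatments the test called no member and no gene (0% of 9852). In cells without vitamin D 7 members had an unadjusted p under 0.05, after calcitriol 14 and after calcidiol 6, against 599, 972 and 459 of all genes. Slc20a1 had a difference of 0.37 (95% interval 0.12 to 0.62) without vitamin D, 0.40 (0.15 to 0.65) after calcitriol and 0.34 (0.091 to 0.59) after calcidiol, with the smallest p of any member in each. Slc19a2 had 0.53, 0.66 and 0.56, and Slc39a6 0.27, 0.30 and 0.26. Slc25a1 had 0.14 (-0.061 to 0.34), 0.26 (0.063 to 0.46) and 0.22 (0.021 to 0.42). The 3 comparisons use separate arrays, but Slc20a1, Slc19a2, Slc39a6 and Slc25a1 were picked on the average of these 3 differences. That choice favours similar values in the 3 pretreatments, so their likeness is no added support. The spread was also estimated over all groups together, and same-numbered arrays deviated from their group means together. The 3 are therefore not independent repeats. Slc19a1 was at 0.39 (0.14 to 0.64) after calcitriol, and Slc26a2 at -0.35 (-0.61 to -0.098) there.

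Without the arrays numbered 3, the same contrasts called 3 members in cells without vitamin D, 6 after calcitriol and 3 after calcidiol, against 1.06%, 1.89% and 1.35% of all genes. Slc20a1, Slc19a2 and Slc39a6 were called in all 3 of them by limma. After calcitriol Slc19a1 (0.52), Slc1a4 (0.55) and Slc25a1 (0.36) were called as well. Groups hold 2 arrays in these fits, and their spread was estimated over all 6 groups. The arrays left out were again those seen to respond less to glucose.

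A few carriers varied far more between arrays than any treatment moved them, and did so in pairs. Slc18a1, the vesicular monoamine transporter VMAT1, ran from 5.49 to 8.66. Without vitamin D it measured 6.68, 7.04 and 7.89 on unstimulated arrays 1, 2 and 3, and 6.67, 7.43 and 7.95 on stimulated ones. After calcitriol it measured 5.49, 7.41 and 7.72, and 6.42, 7.96 and 8.29. After calcidiol it measured 5.93, 8.66 and 7.30, and 5.57, 8.25 and 7.38. The stimulated and unstimulated arrays of 1 pretreatment and 1 number thus lay near each other, with a mean gap of 0.37, while the means of the 9 such pairs spanned 2.71.

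The pyruvate and lactate carrier Slc16a7 (MCT2) showed the same arrangement, with pair means spanning 2.42 and a mean gap within pairs of 0.26. It was at 6.33 and 6.04 on the calcidiol arrays numbered 1 and at 8.61 and 8.59 on those numbered 2. In Slc38a5, a glutamine and histidine carrier, pair means spanned 1.62 with a mean gap of 0.16. Its calcidiol arrays stood at 7.62 and 7.25 for number 1, 8.68 and 8.47 for number 2, and 6.95 and 6.97 for number 3, so that both extremes of the 18 arrays were within 1 pretreatment. The iron exporter Slc40a1 (ferroportin) had pair means spanning 1.08 and a mean gap of 0.24. These 4 members, chosen for their spread, are 2.37% of the 169, and 180 of all genes (1.83%) had pair means spanning over 1. Their glucose intervals were correspondingly wide, from -0.75 to 1.15 for Slc18a1 and from -0.69 to 0.89 for Slc16a7.

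**Figure D4:**
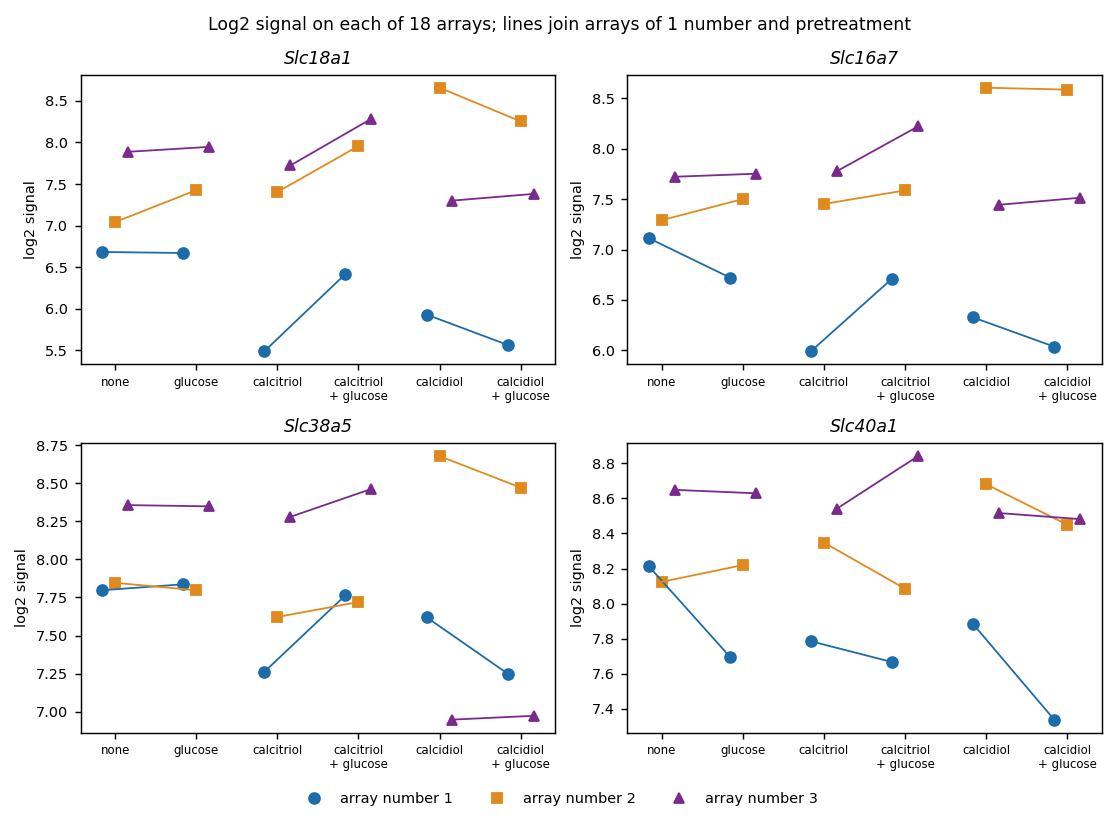
Log2 signal (vertical axis) of Slc18a1, Slc16a7, Slc38a5 and Slc40a1 on each array by group, with lines joining the unstimulated and stimulated array of 1 number and pretreatment. The joined points stay close in level while the lines lie far apart, for Slc18a1 from 5.49 on a calcitriol array numbered 1 to 8.66 on a calcidiol array numbered 2.

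Array numbers also separated members irrespective of treatment. All 6 arrays numbered 1 lay apart from all 6 numbered 3 in 33 of 169 members (19.5%, against 12.3% of all genes), in 26 of them with number 1 lower (15.4%, against 6.64%). The corresponding counts were 7 (4.14%, against 2.39%) for numbers 1 and 2 and 11 (6.51%, against 5.18%) for numbers 2 and 3. Among the 33 were Slc18a1, Slc16a7, Slc40a1, the sodium-potassium-chloride cotransporter Slc12a2 and Slc16a1, all lower on number 1. Slc39a7, which releases zinc from the endoplasmic reticulum, was lower on numbers 1 and 2 than on number 3. With the number as a block it was among the carriers called higher under glucose (0.11, limma adjusted p = 0.0366), where the fit without the block gave an adjusted p of 0.369.

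Neither vitamin D form changed a carrier by the test. Calcitriol against no vitamin D called 0 of 169 members and 0% of all genes, averaged over glucose states, without glucose and under glucose, and so did calcidiol. For calcitriol 1 member in each of the 3 comparisons had an unadjusted p under 0.05 in limma, against 60, 77 and 38 of all genes. For calcidiol the numbers were 6, 1 and 4 members, against 660, 238 and 259 genes. The median member difference was -0.0036 for calcitriol and -0.030 for calcidiol, averaged over glucose states, against -0.011 and -0.024 for all genes.

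Most members were measured closely enough to bound a change at 0.5, as set against the variation among these arrays. That bound is wider than the glucose differences of Slc20a1 (0.37), Slc39a6 (0.28) and Slc25a1 (0.21). It does not exclude changes of their size. With calcitriol averaged over glucose states, the median 95% interval reached 0.15 to either side of the difference, and for 165 of 169 members the whole interval lay within 0.5 of 0. For calcidiol the corresponding number was 164. The largest difference for calcitriol was that of the mitochondrial glutamate carrier Slc25a22, at 0.17 (-0.018 to 0.35), and under glucose at 0.26 (-0.0026 to 0.52). The largest for calcidiol was that of Slc38a5, at -0.34 (-0.97 to 0.29), one of the carriers with widely spread pairs, and without the arrays numbered 3 it was 0.19.

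Several mitochondrial carriers were among those with the smallest p. For calcitriol they were those of Slc25a30 (-0.13, 95% interval -0.26 to -0.0044), Slc25a22, the sodium-glucose cotransporter Slc5a2 (-0.14) and the anion carrier Slc26a11 (-0.13), none of which passed. For calcidiol they included those of Slc25a27 (-0.16, -0.27 to -0.048), an uncoupling protein of the same family, Slc25a46 (-0.12, -0.23 to -0.020), a protein of the outer mitochondrial membrane, and Slc25a38 (-0.14, -0.27 to -0.021), the mitochondrial glycine carrier used in haem synthesis. Each of these had a limma adjusted p of 0.722.

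For Slc25a27 the unstimulated values were 7.90, 7.86 and 7.96 without vitamin D and 7.74, 7.78 and 7.72 after calcidiol, and the stimulated values were 7.85, 7.74 and 7.93, and 7.52, 7.77 and 7.76. The unstimulated groups did not overlap and the stimulated ones did. For Slc25a30 the unstimulated values were 7.38, 7.45 and 7.28 without vitamin D and 7.12, 7.19 and 7.14 after calcitriol, and under glucose 7.27, 7.32 and 7.34 against 7.38, 7.11 and 7.29. These groups were also apart without glucose and overlapping with it. Slc25a27 and Slc25a30 were picked for their small p in these comparisons, which favours groups that lie apart. Their separation is therefore no added support, and the share of all genes so separated is not given here.

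The 2 forms were compared directly at the same 10 nM and 72 h, as 1 pair of compounds in 3 contrasts. Calcitriol, with its additional hydroxyl group, and calcidiol did not differ in any member by the test (0% of all genes called in each contrast). Averaged over glucose states 5 members had an unadjusted p under 0.05, without glucose 1 and under glucose 6, against 291, 96 and 309 of all genes. The difference farthest from 0 over the averaged states was that of Slc2a4, 0.24 with a 95% interval of -0.11 to 0.59. For 163 of 169 members the whole interval lay within 0.5 of 0, which bounds but does not exclude a difference between the forms.

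Slc25a38 had the smallest p of the members in this comparison. Under glucose it measured 7.07, 7.15 and 7.04 after calcitriol and 6.69, 6.81 and 6.85 after calcidiol, with 6.90, 7.11 and 7.08 in cells without vitamin D. The 2 vitamin D groups did not overlap, and their difference was 0.30 (SE 0.082, 95% interval 0.13 to 0.48) with an unadjusted p of 0.00209 and a limma adjusted p of 0.999. Without glucose the calcitriol arrays stood at 6.87, 7.19 and 7.06 and the calcidiol arrays at 6.96, 6.88 and 7.005, and overlapped. As Slc25a38 was picked for its small p, the separation under glucose is no added support. Of the others with small p, Slc10a3 was at 0.23 under glucose (0.037 to 0.42), Slc35e2b at -0.19 (-0.37 to -0.011), Slc35b1 at 0.14 (0.0043 to 0.28), and the copper importer Slc31a1 at 0.13 over both states (0.00084 to 0.25).

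**Figure D5:**
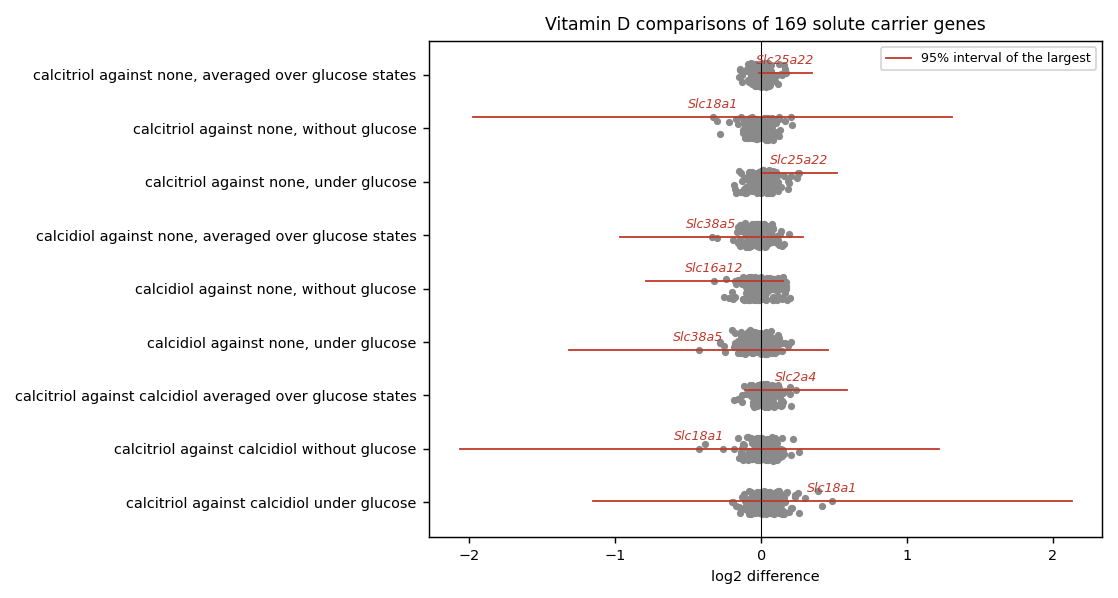
Log2 differences of 169 carriers (grey points, horizontal axis) in each of 9 vitamin D comparisons, with the member farthest from 0 named and its 95% interval drawn as a line. The points gather around 0 in every row, and the intervals of the named members are widest for Slc18a1, from -1.97 to 1.31 for calcitriol without glucose.

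The interaction of each form with glucose asks whether the glucose response differed after that pretreatment. No member and no gene was called for calcitriol or calcidiol (0% each), with 2 and 0 members at an unadjusted p under 0.05 in limma, against 66 and 32 of all genes. The members with the smallest p for calcitriol included Slc4a1ap (-0.22, 95% interval -0.46 to 0.0068), Slc35c2 (0.20, 0.013 to 0.38) and Slc36a4 (-0.23, -0.47 to 0.018). For calcidiol they were the coenzyme A carrier Slc25a42 (-0.21, -0.45 to 0.026), Slc25a38 (-0.21, -0.46 to 0.036), Slc35e4 and Slc35g2. For the carriers that rose under glucose the interactions were small beside their intervals. That of Slc20a1 was 0.029 (-0.32 to 0.38) with calcitriol and -0.030 (-0.38 to 0.32) with calcidiol, and that of Slc19a2 was 0.13 (-0.58 to 0.85) and 0.026 (-0.69 to 0.74). The intervals of Slc19a2 are wider than its glucose difference, so an altered response of that size was not detectable on 3 arrays per group.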

How the data were processed

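Total RNA of 18 INS1E samples was hybridised to Affymetrix Rat Gene 1.0 ST arrays. RMA and Partek are named, per the submitters' processing notes, with no role, version or setting. The deposited table holds the authors' normalised log2 signals for 17017 probe sets, of which 14698 carry a symbol, and these log2 signals entered the tests without further scaling. Of the members, 167 bear current RefSeq GRCr8 symbols and 2 bear older names.

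After dropping the 25% of symbols with the weakest mean signal, 9852 genes remained. A single limma model (limma 3.58.1, R 4.3.3, lmFit and eBayes) over the 6 groups gave 15 comparisons, each adjusted by Benjamini-Hochberg across those genes, at a threshold of 0.05. The code was tested on simulated data.

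Members, classes and lists were chosen with earlier results of these data known. Named members were those called or, where none was, the 4 with the smallest p, then up to 4 per class under glucose, the 10 highest, those nearest the level, the most variable, those whose arrays numbered 3 deviated most, and a list of beta-cell carriers. Some genes that the rule names are not reported here. Splits by array number and counts of separated arrays were chosen after seeing the data.

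Same-numbered arrays deviated from their group means together. Every correlation was above 0.1 in 8 of 9 comparisons, and the lowest was 0.0533, for calcidiol without glucose. The pairing in the glucose comparisons therefore comes from the values, as the labels give only numbers.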

Additional observations from a re-analysis of the deposited data

How the results depend on the processing

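Of the 15 counts of called carriers, those of the 11 comparisons of vitamin D forms and interactions stayed at 0 under every alternative run. For glucose averaged over pretreatments the 4 became 13 with the replicate block, 14 without the 6 arrays numbered 3, 22 without those arrays and with the replicate block, 9 with quantile normalization, 9 with each array centred on its median, 19 with array weights, 1 with the series matrix values, and 0 without the 6 arrays numbered 1 and 0 without those numbered 2. Leaving out 1 array at a time gave 0 to 12. The 13 were 7.69% of members against 9.55% of all genes, and the 14 were 8.28% against 9.94%. The 22 were 13% against 15.9%, and the 19 were 11.2% against 11.9%. Each 9 was 5.33% against 3.17%. No difference between these shares was tested. The counts within pretreatments, 0 as reported, are given for none, calcitriol and calcidiol in turn. Without the arrays numbered 3 they were 3, 6 and 3 (1.78%, 3.55% and 1.78% of members, against 1.06%, 1.89% and 1.35% of all genes). With the replicate block added to that they were 3, 8 and 4 (1.78%, 4.73% and 2.37%, against 1.78%, 4.54% and 2.45%). Array weights gave 10 and 12 for none and calcitriol (5.92% and 7.1%, against 10.7% and 3.79%). After calcidiol, 0 to 2 were called with 1 array left out, 2 being without its stimulated array 3. The other filters, the intensity trend with robust estimation and the mean of a symbol's probe sets called 3 or 4. The replicate block changed no other count. Of the 60 differences that were called or had the smallest p of their comparison, 0 changed direction under any alternative run. They were picked for a small p on the same arrays, which favours an unchanged direction. Outside these, Slc38a5 after calcidiol turned from -0.34 to 0.19 without the arrays numbered 3. Only the 4 glucose differences averaged over pretreatments were called, so the 52 cases of a called difference missing the threshold are all theirs. Slc19a2, Slc39a6 and Slc25a1 missed it in every fit that left out 1 array numbered 1 or 2. In 21 cases an uncalled difference passed it. The causes were not tested.

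Groups of 3 arrays limit the precision, and the median carrier interval within 1 pretreatment reached 0.21 to either side. A difference smaller than that may have gone undetected, and larger ones went uncalled as well. Slc19a2, for example, was not called at 0.53 without vitamin D, 0.66 after calcitriol and 0.56 after calcidiol. The interval width is thus not the limit of what the adjusted test could call. Array signals say nothing of carrier protein or transport.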
